A study of Mus musculus with 4 samples.

Results

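Lsh, encoded by Hells, is a chromatin helicase of the SNF2 family that is needed for DNA methylation of repeats, and the comparison of WT with Lsh-/- E13.5 whole embryos asks which individual repeat loci are transcribed when it is lacking. The samples were 1 library of WT and 1 library of Lsh-/- E13.5 mouse embryos, 2 of the 4 libraries and 12 of the 24 count tables of the study, both labelled C57BL/6J and made from total RNA, with no other agent or allele given. The number of embryos in a library, their sex and any pooling were not given in the sources used here, and the methods on embryos describe heterozygous and homozygous animals where the labels say WT. Members were the loci listed in the 6 count tables of either embryo library, which were 4947 of the 6216 LTR loci and 106416 of the 145916 LINE loci of the whole series, together with the intervals that flank them. The 6 tables held 33904311 counts in the WT and 32784804 in the Lsh-/- library. A locus not listed was taken as a count of 0.

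LTR retrotransposons are remnants of retroviruses whose long terminal repeats carry the promoter, and intracisternal A particles (IAPs) are the young and mobile members of this class in mice. LINEs are retrotransposons without terminal repeats, of which the L1Md families are the young forms and L2, CR1 and the L1M families ancient ones. In somatic cells the CpG sites of young LTRs are heavily methylated, and that methylation helps to keep them silent.

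Counts were scaled by TMM over the flanking intervals of LINE loci, a count under 3 was raised to 3, and a locus with at least 10 counts in the pair was tested. It was called higher or lower in the mutant at a 4-fold difference. Unless stated otherwise, shares called higher or lower are of tested loci. A locus with no count in 1 library was tested through its counts in the other alone. With 1 library per group there was no test, a call compares these 2 libraries only, and all intervals given are exact 95% intervals for counting error. Against a count of 0, a locus needed 12 counts in the Lsh-/- library to be called higher and 13 in the WT library to be called lower.

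The first 300 bases of 6 named LTR loci are shown, each read in the direction of the element from the mm9 genome, with every CpG in capitals. The first 2 are the IAP loci with the most mutant counts among those called higher, and the third is a locus of the same name as the second that was called lower. The fourth is the RLTR10 locus with the most mutant counts among those called higher, the fifth the RLTR10 locus called lower with the most WT counts, and the last the LTR locus called lower with the most WT counts.
IAPLTR1_Mm called higher, chr15:72918083-72918382, minus strand: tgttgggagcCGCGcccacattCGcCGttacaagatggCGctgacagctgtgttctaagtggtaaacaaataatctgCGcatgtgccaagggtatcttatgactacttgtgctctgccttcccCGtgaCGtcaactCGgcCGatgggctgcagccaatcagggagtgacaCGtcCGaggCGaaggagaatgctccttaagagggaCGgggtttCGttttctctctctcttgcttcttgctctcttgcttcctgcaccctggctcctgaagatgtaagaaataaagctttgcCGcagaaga
IAPLTR2a called higher, chr4:143578434-143578733, minus strand: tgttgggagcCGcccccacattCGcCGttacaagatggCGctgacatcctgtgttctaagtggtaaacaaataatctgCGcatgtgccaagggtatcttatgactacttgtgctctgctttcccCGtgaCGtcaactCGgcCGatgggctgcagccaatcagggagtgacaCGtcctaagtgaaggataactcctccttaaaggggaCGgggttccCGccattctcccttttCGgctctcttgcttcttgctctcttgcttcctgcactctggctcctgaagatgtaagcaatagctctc
IAPLTR2a called lower, chr16:16934731-16935030, plus strand: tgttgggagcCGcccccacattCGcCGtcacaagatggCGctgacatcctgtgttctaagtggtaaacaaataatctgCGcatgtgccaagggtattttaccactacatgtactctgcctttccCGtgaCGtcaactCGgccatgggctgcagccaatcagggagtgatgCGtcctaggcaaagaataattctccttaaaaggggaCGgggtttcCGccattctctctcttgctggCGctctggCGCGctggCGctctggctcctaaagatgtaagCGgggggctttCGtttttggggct
RLTR10D called higher, chr10:37779031-37779330, plus strand: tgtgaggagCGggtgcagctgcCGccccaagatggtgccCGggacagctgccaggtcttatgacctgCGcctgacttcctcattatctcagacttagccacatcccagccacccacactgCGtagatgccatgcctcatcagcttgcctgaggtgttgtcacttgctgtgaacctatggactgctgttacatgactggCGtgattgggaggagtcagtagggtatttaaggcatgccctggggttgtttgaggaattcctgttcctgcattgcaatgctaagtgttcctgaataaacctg
RLTR10C called lower, chr3:96318934-96319233, minus strand: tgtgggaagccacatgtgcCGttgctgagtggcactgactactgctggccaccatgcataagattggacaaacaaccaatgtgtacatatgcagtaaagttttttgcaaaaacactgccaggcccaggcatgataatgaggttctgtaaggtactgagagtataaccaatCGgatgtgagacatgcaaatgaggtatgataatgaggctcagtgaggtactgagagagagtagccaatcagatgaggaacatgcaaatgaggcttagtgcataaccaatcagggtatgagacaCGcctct
RLTR1B called lower, chr8:124356745-124357044, plus strand: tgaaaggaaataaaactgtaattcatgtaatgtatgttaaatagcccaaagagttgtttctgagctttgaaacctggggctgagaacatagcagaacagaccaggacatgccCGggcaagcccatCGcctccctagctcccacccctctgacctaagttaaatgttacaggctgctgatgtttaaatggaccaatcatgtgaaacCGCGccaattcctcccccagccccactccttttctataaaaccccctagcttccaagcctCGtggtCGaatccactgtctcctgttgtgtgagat
The 300 bases held 16 CpG sites in the IAPLTR1_Mm locus, 13 in the IAPLTR2a locus that was called higher and 17 in the one that was called lower. The RLTR10D locus held 6, the RLTR10C locus 3 and the RLTR1B locus 6. All 6 began with TG, the ends that integrated retroviruses have.

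Hells was read through 15 tested intervals and had a gap in the mutant. The intervals on exons 11 and 12 had 273 and 154 WT counts and 0 in the mutant, and those on exon 13 had 262 and 0, and 275 and 24. Beside these 4 lowered intervals the other 11 stayed within 4-fold, for example 221 and 221 counts on exon 10 and 254 and 295 on exon 14, so reads were present on both sides of the gap.

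LTR loci were called higher in Lsh-/- embryos far more often than lower. Of 1795 tested loci, 634 (35.3%) were called higher and 46 (2.56%) lower, with a median log2 fold of 1.06. Among LINE loci 1322 of 24989 (5.29%) were called higher and 1131 (4.53%) lower, with a median of 0.04, and this split turned to 1311 higher and 1450 lower when size factors of DESeq2, which left both libraries unscaled, replaced TMM. Over all listed loci, tested or not, the shares called higher and lower were 12.8% and 0.93% for LTR and 1.24% and 1.06% for LINE loci. Of the 634 LTR loci called higher, 343 had no count in the WT library and 183 had 1 or 2, and 108 had 3 or more. Most were low in the mutant too, with a median of 22 counts and a range from 12 to 1033, and 63 loci reached 100 counts. The plot of counts per locus shows these loci as a column at the left edge, apart from the diagonal on which the loci already read in WT lie.

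**Figure D1:**
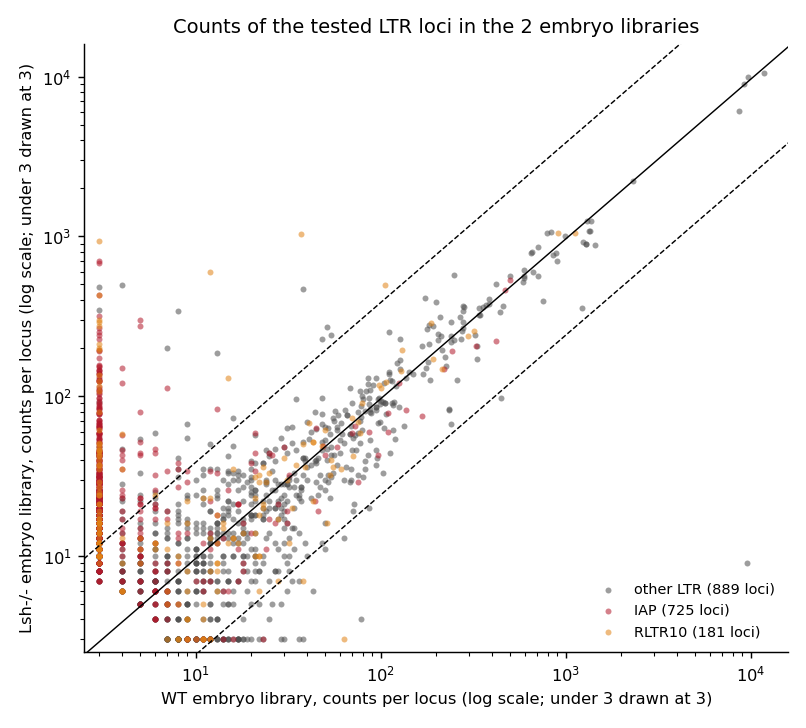
Counts of each of the 1795 tested LTR loci in the WT (x axis) and Lsh-/- (y axis) embryo library on log scales, with counts under 3 drawn at 3. Points are single loci, the solid line is equality after scaling and the dashed lines a 4-fold difference. Of the 634 loci above the upper line, 475 are IAP and 59 RLTR10 loci, and the lone point at the lower right is the RLTR1B locus with 9534 and 9 counts.

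IAP loci made up 475 of the 634. Of 725 tested IAP loci 65.5% were called higher and 3 (0.414%) lower, and the 2034 listed loci summed to 5965 WT and 28822 mutant counts. Of the 725, 336 had no WT count and were tested through their mutant counts alone. Of all 2034 listed IAP loci 23.4% were called higher. The IAPLTR1 forms led. IAPLTR1a_Mm was called higher at 200 of 280 loci (71.4%; 743 and 8296 counts in WT and mutant) and IAPLTR1_Mm at 177 of 253 (70%; 932 and 10558 counts). IAPLTR2a, IAPLTR2b and IAPLTR2_Mm were called higher at 61.9% of 21, 60% of 45 and 54.2% of 59 loci. IAPEY_LTR (6 of 12), IAPLTR4 (10 of 23) and IAPEY3_LTR (5 of 14) followed, and IAPEY2_LTR was called higher at 1 of 12.

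The IAP counts were spread over many loci. The 10 IAP loci called higher with the most mutant counts held 3694 of 19237, whereas the first 10 of RLTR10 held 4770 of 6806 (70.1%). The named IAP loci called higher lay outside genes but for 1. The IAPLTR1_Mm locus of which the start is shown lies on chromosome 15 from 72911842 to 72918382, 2440 bp from Chrac1. It had 0 counts in WT and 704 in the mutant, at least 198-fold higher. Its interval on the higher-coordinate side, 10 to 11 kb away, held 1355 and 1414 counts. A second IAPLTR1_Mm locus, on chromosome 11 (74033195 to 74040244, 12404 bp from Olfr43), had 0 and 428 counts, at least 120-fold higher. The IAPLTR2a locus of the second sequence, on chromosome 4 from 143573862 to 143578733, 2289 bp from Pramef17, had 1 and 684 counts, a ratio of 711 (127 to 28113), and IAPLTR2b on chromosome 4 (113805854 to 113814057) had 1 and 317.

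The other IAP groups had leading loci of lower counts. The IAPLTR1a_Mm locus on chromosome 6 (124924088 to 124931189, 8532 bp from Cops7a) had 4 and 150 counts, a ratio of 39 (14.9 to 145). That on chromosome 17 (38673289 to 38679879) had 0 and 146 counts, at least 40.6-fold higher. IAPLTR4 on chromosome 10 (78875652 to 78880773) had 0 and 173 counts, at least 48.2-fold higher. IAPEY3_LTR on chromosome 1 (175502629 to 175510769), inside Pydc4 and on its strand, had 1 and 128 counts, a ratio of 133 (23.4 to 5294). The 2 named IAP loci called lower were small in both libraries. IAPLTR2_Mm in Iars2 on chromosome 1 (187127378 to 187130388) had 23 and 1 counts, a 22.1-fold difference (3.59 to 912), and the IAPLTR2a locus of the third sequence, on chromosome 16 (16934731 to 16939747), 16 and 3 counts, a 5.13-fold difference with an interval from 1.47 to 27.5.

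Among non-IAP LTR loci 159 of 1070 (14.9%) were called higher and 43 (4.02%) lower, with a median of 0.12. RLTR10, a family of ERVK repeats, divided by name. RLTR10A was called higher at 28 of 48 loci (58.3%) and RLTR10D at 25 of 47 (53.2%), close to the shares of IAPLTR2 names, whereas RLTR10 was called higher at 3 of 32 and RLTR10C at 2 of 37. Summed counts were 350 and 2024 for RLTR10A, 1276 and 6327 for RLTR10D, 2228 and 2056 for RLTR10, and 1155 and 1175 for RLTR10C. The RLTR10D locus of the fourth sequence, on chromosome 10 from 37779031 to 37783208 and 902113 bp from the nearest protein-coding gene, was the LTR locus with the most mutant counts among those called higher, 37 in WT and 1033 in Lsh-/- embryos, a ratio of 29 (20.9 to 41.4). A second, on chromosome 18 from 37395488 to 37401857 and 22795 bp from Pcdhb1, had 1 and 931 counts.

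Outside IAP and RLTR10, 100 of 889 tested loci were called higher and 41 lower. RLTR6_Mm, an ERV1 repeat, was called higher at 29 of 107 loci (27.1%) and lower at 2, and RLTR40 at 4 of 17. An RLTR6_Mm locus on chromosome 4 (143565436 to 143570378), close to the IAPLTR2a locus above, had 2 and 347 counts, a ratio of 180 (49.5 to 1495), and it overlaps another listed locus. RLTR15 on chromosome 8 (89322807 to 89328257) had 4 and 496 counts, a ratio of 129 (50 to 475), although RLTR15 as a name was called higher at 4 of 41 loci. No member of the 29 tested ERVL and MaLR loci was called higher. Of 40 LTR names with at least 10 tested loci, 27 had more loci called higher than lower and 8 the opposite.

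**Figure D2:**
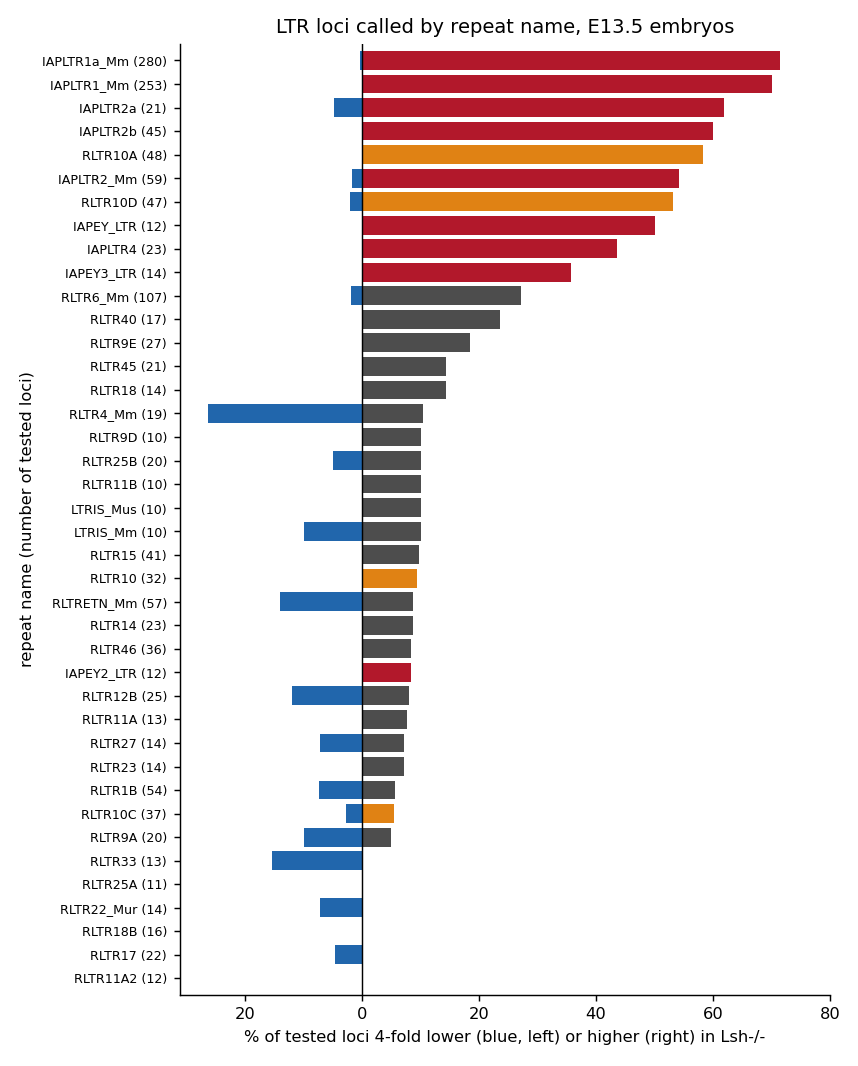
Percent of the tested loci of each of 40 LTR repeat names called 4-fold higher (right of 0; red for IAP, orange for RLTR10, grey for others) or lower (left of 0, blue) in Lsh-/- embryos, with the number of tested loci in brackets. IAPLTR1a_Mm is highest at 71.4% and RLTR4_Mm has the highest lower share at 26.3%.

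LTR loci that fell were few, and 1 of them held most of the counts. The RLTR1B locus of the last sequence lies on chromosome 8 from 124356745 to 124365164, within an intron of Gm20388 and on its strand, and had 9534 counts in WT and 9 in Lsh-/- embryos, a 1019-fold difference (537 to 2230). The flanking intervals held 25 and 36 counts on one side and 7 and 0 on the other. This locus alone supplied 9534 of the 10895 WT counts of RLTR1B. Without it the name had 1361 counts in WT and 1519 in the mutant, 3 loci called higher and 3 lower of 53. It was low in SV40-transformed Lsh-/- fibroblasts as well, with 3245 counts in WT and 8 in Lsh-/- cells.

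The other lowered loci had at most 446 WT counts. Names with several were RLTR4_Mm, an ERV1 repeat related to murine leukaemia viruses (5 lower and 2 higher of 19 loci), and RLTRETN_Mm, an early transposon LTR of the ERVK class (8 lower and 5 higher of 57). An RLTR4_Mm locus on an exon of Ccdc21, on the opposite strand (chromosome 4, 133715554 to 133720341), had 446 and 98 counts, a 4.38-fold difference. RLTRETN_Mm on chromosome 16 (25517820 to 25523355) had 63 and 13. The RLTR10C locus of the fifth sequence, on chromosome 3 (96312130 to 96319233), 9875 bp from Hfe2, had 63 and 2 counts, a 30.3-fold difference (8.05 to 256). RLTR10D on chromosome 12 (22154970 to 22158293) had 38 and 7, and LTR40c in Ccdc134 was the ERVL and MaLR locus with the most, 25 and 4. Of the 46, 11 had no count in the mutant.

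Wide IAP loci were called higher more often than short ones. Of IAP loci of 6 kb and over, which is about the width of a full-length provirus, 72.7% of 395 were called higher, of those of 4 to 6 kb 63% of 262, and of those of 2 to 4 kb 36.1% of 61. Over all listed loci the counts per kb were 0.372 in WT and 2.52 in the mutant for IAP loci of 6 kb and over, and 1.86 and 2.52 for those of 2 to 4 kb. The summed densities of the 2 width classes were thus the same in the mutant and differed in WT. Loci with many counts weigh most in such sums, and densities per locus were not compared. RLTR10 loci were called higher at 29.8% of 94 loci of 2 to 4 kb, 42.9% of 28 of 4 to 6 kb and 35.2% of 54 of 6 kb and over. Among the remaining LTR loci the share ran from 3.41% of 88 loci of 1 to 2 kb to 15.1% of 337 of 6 kb and over. A wide locus collects more reads, and the part of this in the shares was not tested.

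CpG density at the element's start differed between repeat names. Over the first 350 bases, the 467 IAP loci called higher had a median of 5.71 CpG per 100 bases and the 244 called neither way 5.29. For IAPLTR1_Mm both medians were 5.14 and for IAPLTR1a_Mm both were 6. RLTR10A and RLTR10D together had 2.57 at 53 loci called higher and 2.29 at 41 called neither way, and RLTR10 and RLTR10C had 1.71 over 69 tested loci. The remaining LTR loci had 1.71 at 99 loci called higher, 1.14 at 743 called neither way and 2 at 40 called lower. A density of 4 and over was met by 647 IAP loci, 433 of them called higher (66.9%), by 9 RLTR10 loci, 6 of them called higher (66.7%), and by 62 other loci, of which 6 (9.68%) were called higher and 7 lower. Among RLTR10 loci the share called higher was 30.8% of 13 loci under 1 CpG per 100 bases, 20.5% of 44 at 1 to 2, 33.3% of 90 at 2 to 3 and 40% of 25 at 3 to 4.

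**Figure D3:**
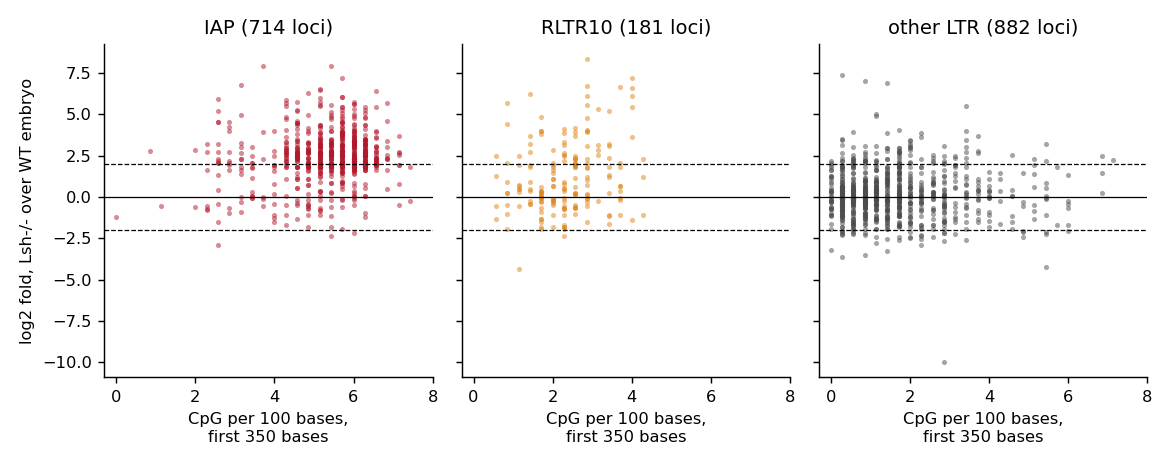
Log2 fold (Lsh-/- over WT embryo, counts under 3 raised to 3) of tested LTR loci against CpG per 100 bases of the first 350 bases, for 714 IAP, 181 RLTR10 and 882 other LTR loci. Each point is 1 locus and dashed lines mark a 4-fold difference. Of the 714 IAP loci 647 lie at 4 CpG per 100 bases and over, and the other LTR loci have medians between -0.03 and 0.43 in each density class.

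The letters AAGATGG, seen in the printed IAP and RLTR10D starts and then counted on both strands of the first 350 bases, were present in 827 of 1777 LTR starts (46.5%). They were present in 692 of 714 IAP loci (96.9%), in 51 of 95 RLTR10A and RLTR10D loci (53.7%), in 0 of 69 RLTR10 and RLTR10C loci and in 78 of 882 others (8.84%). Within RLTR10A and RLTR10D, 27 of 51 loci with the letters and 26 of 44 without them were called higher. Within the loci outside IAP and RLTR10 the shares called higher were 10.3% with and 11.3% without them. Within IAP they were 66.6% of 692 with and 27.3% of 22 without the letters.

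Loci called higher lay mostly outside genes. Of 467 placed IAP loci called higher 78.4% lay outside annotated genes, 19.7% in introns and 1.93% on exons, against 65.6%, 27.9% and 6.56% of the 244 called neither way. Inside genes, where transcripts of a host gene can also give counts, 37 of 98 IAP loci called higher (37.8%) lay on the gene's strand, against 19 of 84 called neither way (22.6%). RLTR10 and other LTR loci called higher lay outside genes at 78% and 77.8%, against 55.8% and 50.2% of those called neither way. Among the remaining LTR loci called lower, 63.4% lay outside genes. Inside a gene 1 of 13 lay on its strand, against 94 of 346 (27.2%) of those called neither way.

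The excess of higher calls was present on every autosome. On each of the 19 autosomes more LTR loci were called higher than lower, with shares from 25.3% on chromosome 3 to 50.6% on chromosome 14. IAP loci ranged from 47.1% on chromosome 16 to 89.3% on chromosome 11. Non-IAP LTR loci ranged from 3.45% on chromosome 15 to 25% on chromosome 8, and had more higher than lower calls on 16 autosomes. On chromosome 8 the summed LTR counts were lower in the mutant, at a scaled ratio of 0.38, although 40 of 80 loci were called higher and 4 lower, and the RLTR1B locus lies there. On chromosome X 38 of 89 LTR loci were called higher and 3 lower, and on Y 1 of 5 and 0.

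**Figure D4:**
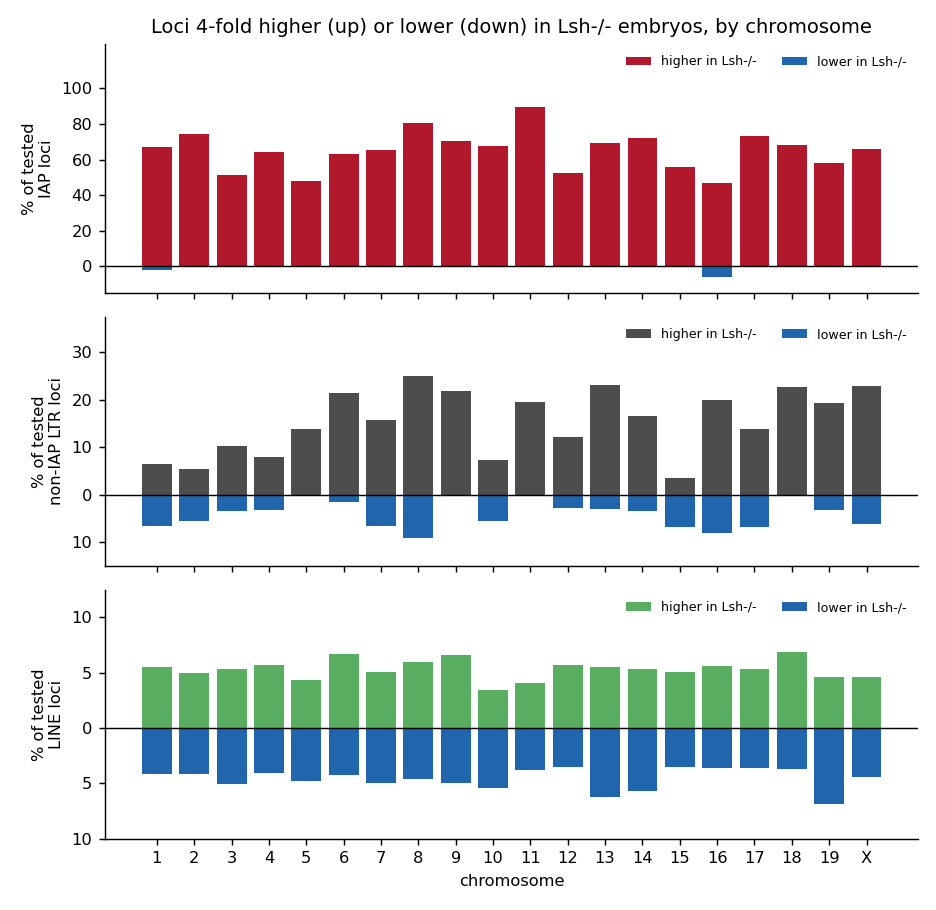
Percent of tested IAP (top), non-IAP LTR (middle) and LINE loci (bottom) called 4-fold higher (above 0) or lower (below 0, blue) in Lsh-/- embryos on each autosome and X. IAP bars run from 47.1% to 89.3% on autosomes with lower calls on chromosomes 1 and 16 alone, while LINE bars run from 3.44% to 6.9% above and from 3.48% to 6.83% below 0.

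LINE loci showed no such shift, and the young forms a small one. L1Md loci together were called higher at 147 of 1448 (10.2%) and lower at 64 (4.42%), with a median of 0.17, against 4.99% and 4.53% of the 23541 other LINE loci. L1Md_F was called higher at 15 of 87 and lower at 2, L1Md_T at 17 and 3 of 169, L1Md_F2 at 93 and 47 of 889, and L1Md_A at 9 and 4 of 108. The ancient families were balanced, with 114 higher and 136 lower of 3148 L2 loci and 25 and 33 of 655 CR1 and RTE loci. LINE loci of 6 kb and over, the width of a complete element, were called higher at 19 of 142 (13.4%) and lower at 3, whereas those under 1 kb were called higher at 4.91% and lower at 4.58% of 21622. The 2 classes of L1Md at 6 kb and over and under 1 kb gave 12 of 91 (13.2%) and 75 of 855 (8.77%).

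LINE loci called higher often lay close to an LTR locus called higher. Within 50 kb of such a locus were 175 of the 1322 (13.2%), compared with 2.57% of all 24989 tested LINE loci and 25 of 1131 (2.21%) called lower. Outside genes the share was 36.4% of 396, against 7.29% of 3911 tested. In turn, of 642 tested LINE loci within 50 kb of an LTR locus called higher 27.3% were called higher and 3.89% lower, and farther away 4.71% and 4.54%. Neighbouring loci can lie on 1 transcript and are not independent, so these shares are a description.

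The densest group lay on chromosome 9. Between positions 19471620 and 19567545, a stretch of 95.9 kb at Olfr857 and Olfr58, 24 LINE loci were called higher and none lower, and 23 of them had no count in WT. Together they had 1 count in WT and 1510 in Lsh-/- embryos. They belong to names as unlike as L1Md_F2, L1Md_A, Lx9, L1_Mur3 and the ancient L1M2, and 17 lay on the minus strand and 7 on the plus strand. L1Md_F2 at 19504664 to 19508050 had 0 and 293 counts, at least 82-fold higher, and L1Md_A at 19544414 to 19548212 had 0 and 197, at least 55-fold. The IAP loci on the minus strand that lie among or beside them were IAPLTR1_Mm at 19525013 to 19529837 with 0 and 86 counts and IAPLTR2b at 19567554 to 19575141 with 5 and 274. The interval at lower coordinates from the former, beyond its end in its own direction, ran from 19514013 to 19515012. It had 0 and 237 counts and was among the 3 raised LTR flanks with the most counts. It covers the Lx9 locus at 19514748 to 19514961, which was itself called higher (0 and 72 counts).

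Counted in 10-Mb bins with at least 50 tested LINE loci, that bin (chromosome 9, 10 to 20 Mb) had 27 of 67 loci called higher (40.3%), the highest of 214 bins, of which the median was 4.57%. The next were chromosome 7 from 60 to 70 Mb with 30 of 134 (22.4%) and chromosome 6 from 130 to 140 Mb with 12 of 57 (21.1%). In the former lie an L1M5 and an L3 locus at 66922335 to 66922677 and 66922939 to 66923007, 204711 and 204381 bp from Snrpn and on opposite strands, with 0 and 326 and 0 and 220 counts. Chromosome 18 from 30 to 40 Mb, with 26 of 176 (14.8%), holds the protocadherin genes and L1Md_T at 37735437 to 37740833 (0 and 94 counts).

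LINE loci called lower were also gathered in places. The bin with the highest share was chromosome 13 from 60 to 70 Mb, with 19 of 133 (14.3%) lower and 6 higher, against a median of 4.17% lower over all bins. Together the 19 had 500 counts in WT and 63 in the mutant. In or nearest to a zinc finger gene or Rsl1, itself such a gene, lay 12 of the 19 (63.2%), and 72 of all 133 tested loci of the bin (54.1%). L1_Mur1 at 67763672 to 67765106, 3268 bp from Zfp738, had 106 and 23. The next were chromosome 7 from 20 to 30 Mb (11.9%), chromosome 8 from 120 to 130 Mb (11.3%), chromosome 13 from 50 to 60 Mb (10.4%) and chromosome 9 from 100 to 110 Mb (10.2%). On chromosome 19 the bins 40 to 50 and 50 to 60 Mb had 11 of 118 (9.32%) and 7 of 70 (10%) called lower, and the LINE loci of this chromosome had the lowest median log2 fold of all autosomes, -0.21. Hells itself lies on it, from 39005405 to 39045541, in a bin with 11 loci higher and 9 lower of 122. The L1MC locus in Btrc (45596118 to 45596393, same strand), a ubiquitin ligase gene, had 119 and 19 counts, a 6.03-fold difference (3.7 to 10.4).

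Further named loci were called lower in places of their own. L1VL4 on chromosome 17 (85896339 to 85899670), 38860 bp from the nearest protein-coding gene, had 816 and 148 counts, a 5.31-fold difference (4.45 to 6.37), but 401 and 449 in the fibroblast libraries. Lx8 on an exon of Xaf1, a gene of the interferon response, had 96 and 1 counts in embryos and 0 and 151 in fibroblasts. L2b in Hemk1 had 86 and 11 counts, L1M5 on an exon of Zzef1 81 and 19, L3 on an exon of the mitotic kinase gene Wee1 47 and 3, and L1_Mus2 on an exon of 5830428H23Rik 111 and 25. RLTR24 on chromosome 3, 365053 bp from Cyp7b1, completed the 10 lowered loci with the most WT counts, with 87 and 20. The young L1 forms had smaller counts. L1Md_F2 in 5830428H23Rik on chromosome 19 (61180614 to 61182853) had 47 and 0, at least 11.8-fold lower. L1Md_A in Zfp697 had 32 and 3, and L1Md_T near Zfp935 17 and 1. Among loci called higher, the leading L2 locus, L2a 1541 bp from Nov, had 11 and 67 counts and Lx6 on chromosome X 62 and 263.

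The intervals that flank the repeats, read as 1 kb wide and 10 kb away, were mostly balanced. Upstream here means at lower coordinates whatever the strand, so either side can face the start or the end of an element. Of 1973 tested intervals around LTR loci 5.47% were called higher and 3.55% lower, and of 160617 around LINE loci 3.74% and 3.11%, a split that turned to 5962 higher and 6182 lower with the size factors of DESeq2. Around LTR loci that were themselves called higher, the upstream intervals were called higher at 13 of 73 (17.8%) and the downstream intervals at 11 of 61 (18%), against 7 of 349 (2.01%) and 7 of 366 (1.91%) around those called neither way. Most had too few counts to be tested. An interval can also lie on another listed repeat. With intervals that overlap an element called the same way left out, LTR flanks called higher went from 108 to 78 and those called lower from 70 to 68. The shares around called elements were not recomputed without them. Summed over the 634 elements called higher, the elements held 1073 counts in WT and 31449 in the mutant while their upstream intervals held 10598 and 9817. Around the 46 elements called lower, 1 of 20 upstream and 3 of 15 downstream intervals were called lower, and the summed intervals held 4299 and 4127 counts upstream and 2424 and 2394 downstream.

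Among the flanking intervals called with the most counts, those of LINE tables all lay on exons. For LTR tables the raised ones were an interval on Mrgprx2, a gene of the Mas-related receptor family (0 and 251 counts, at least 70.2-fold), the one in the chromosome 9 group, and one on chromosome X near Gm5751 (49 and 194). The lowered ones lay on exons of Pnpt1 (142 and 19), a mitochondrial RNA-degrading enzyme, and Ppfia2 (110 and 24) and in Rhobtb3 (125 and 28). For LINE tables an interval on Mgp, which encodes matrix Gla protein, an inhibitor of calcification, had 10509 and 55205 counts, a ratio of 5.46 (5.35 to 5.57). The other 2 raised ones lay on Gm9000 (3238 and 19913) and Tpm3-rs7 (15 and 5434). The 3 lowered ones lay on Rps3a (6397 and 79, and 5604 and 141), a ribosomal protein gene, and on Gm10159 (5196 and 23). Rps3a, Tpm3-rs7 and the Gm loci have or can be near-identical copies between which uniquely mapped reads divide uncertainly.

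Other genes could be read only where an interval or repeat lay on an exon, and their level was taken as the median over such intervals, which can share reads where they overlap. Of 13141 protein-coding genes 136 (1.03%) were higher and 177 (1.35%) lower by 4-fold, with a median of -0.06. Of 24 repressors of retroviral repeats 21 could be read (not Dnmt1, Dnmt3l and Trim28), none past 4-fold, with medians from -1.34 to 0.06. Of these medians 18 lay below 0 and 3 above, against 7563 and 5578 over all protein-coding genes. Hells is in this list with a median of -0.32 despite its 4 lowered intervals, so a median can miss a change in part of a gene. Cdca7l and Suv39h2 had 2 of 7 and 1 of 8 intervals called lower. The H3K9 methyltransferase Setdb1 had a median of -0.35, and the de novo DNA methyltransferases Dnmt3a and Dnmt3b -0.18 and 0.06 (Dnmt3b from 31 and 33 counts). Uhrf1, which recruits Dnmt1, had -0.33, and the Lsh partner Cdca7 -0.63, with 1687 and 1032 counts. Of 23 imprinted genes 20 could be read and none passed 4-fold, with medians from -0.41 for Magel2 to 0.61 for Ube3a. Of 28 germ line genes 7 had a tested interval. Sycp3, of the synaptonemal complex, was lower (41 and 1 counts), none was higher, and Ddx4, an RNA helicase of germ cells, had 12 and 41 counts, with 1 of 2 intervals called higher and a median just under the limit.

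Liver and blood markers differed between the 2 embryo libraries. Of 4 liver genes 2 had a tested interval. These 2, Afp (alpha-fetoprotein) and Alb (albumin), were lower, with 11 of 12 and 8 of 9 intervals called lower and summed counts of 2806 and 315, and of 354 and 61. Of 8 erythroid genes 6 had a tested interval. Of these, 3 were lower, Hba-a1 (29 and 2), Hba-a2 (58 and 3) and Hbb-b1 (162 and 14). Hbb-b2 (24 and 7), Hbb-y (12 and 2) and the erythropoietin receptor gene Epor (10 and 20) were within 4-fold. Hba-a1 and Hba-a2, and likewise Hbb-b1 and Hbb-b2, are near-identical pairs, between which reads divide uncertainly. All 5 muscle and 3 cartilage genes were within 4-fold, with medians from 0.01 (Myh3) to 0.54 (Ttn) and from 0.03 (Sox9) to 0.26 (Col2a1). Of 7 neural genes 4 had a tested interval, of which Tubb3 and Stmn2 had -1.07 and -0.88 and Pax6 and Dcx -0.03 and 0.09. The 4 placental genes had 10 and 48 counts in sum and none could be tested. The summed counts of the liver list were 3165 and 376, and those of the erythroid list 304 and 54. In whole embryos, fewer cells of a type and less RNA per cell cannot be told apart, and the part of tissue make-up in the repeat calls was not tested. With all loci on annotated exons left out, 609 LTR loci were called higher and 41 lower. This keeps loci in introns and outside genes, so it cannot bear on tissue make-up.

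**Figure D5:**
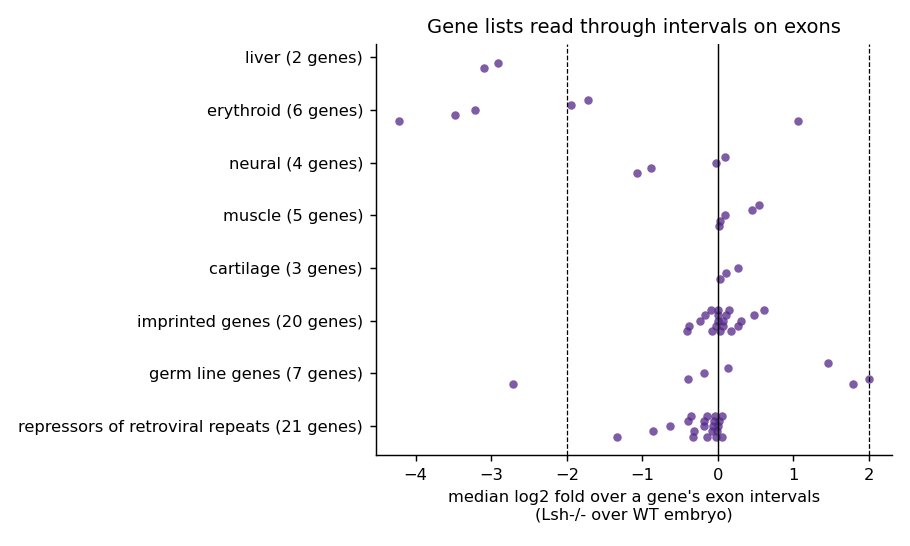
Median log2 fold over the exon intervals of each gene (x axis, Lsh-/- over WT embryo) for the gene lists (rows). Each point is 1 gene, jittered in height, and dashed lines mark a 4-fold difference. Liver genes lie at -3.10 and -2.91 and 3 erythroid genes left of -2, while muscle, cartilage and imprinted genes lie near 0.

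The pair of adult tail-tip fibroblast libraries, from SV40-transformed cells per the study's methods, was scaled on its own. Set beside it, embryos had a smaller share of LTR loci called higher, 35.3% against 63.6% of 2103 tested loci. With 1 library a side in each tissue, the difference was not tested. By group the shares were 71.4% and 86.1% for IAPLTR1a_Mm, 70% and 86.7% for IAPLTR1_Mm, 57.6% and 69.2% for IAPLTR2 and 32.6% and 46.6% for RLTR10. They were 27.1% and 28.9% for RLTR6_Mm, and RLTR1B was called higher at 3 of 54 loci in embryos and 46 of 62 in fibroblasts. Of the 634 loci called higher in embryos 473 were called higher in fibroblasts, which is 74.6% of the embryo list and 35.4% of the 1337 in the fibroblast list. Many loci had too few counts in 1 tissue, and over the 1236 LTR loci tested in both, 473 of 519 called higher in embryos (91.1%) were called higher in fibroblasts, against 57.3% of all 1236. For IAP loci the shares were 95.5% of 426 against 88% of all 632, and for non-IAP LTR loci 71% of 93 against 25.2% of 604. Of LINE loci tested in both, 101 of 399 (25.3%) were called higher in both, against 4.51% of all 11016, and these 101 are 7.64% of the embryo list and 7.46% of the fibroblast list. Of 22 LTR loci called lower in embryos and tested in fibroblasts 4 (18.2%) were called lower there, against 1.54% of all 1236, the RLTR1B locus on chromosome 8 among them.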

How the data were processed

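The sources were 1 RNA-seq library each of WT and Lsh-/- E13.5 embryos and of the 2 fibroblast groups. The fibroblasts, SV40-transformed tail-tip cells, were used here only for values set beside those of embryos. Per the labels and the study's methods, RNA was TriZol-extracted, strand-specific paired-end libraries were made by dUTP marking, reads were mapped to mm9 with TopHat 1.4.0 without mismatches, unique reads were kept, and overlaps with RepeatMasker repeats were counted. The authors deposited, per repeat locus and per flanking interval, counts of reads without normalisation. The methods describe flanking intervals as wide as the element, 10 kb away. The counts fit another width, so an upstream interval was read as the 1 kb from 10 to 11 kb at lower coordinates and a downstream one at higher coordinates. A LINE locus with at least 5 WT counts lying there had no more counts than the interval in all 1460 upstream and 1406 downstream pairs for LINE elements under 400 bp. For LTR elements of 4 kb and over this held in all 16 and 9 pairs, but at 11 to 12 kb in 22 of 25 and 14 of 17, where an interval as wide as the element would hold them. The settings of this check (5 or 20 counts, wide elements from 3 or 4 kb, stretches of 500 or 1000 bp) were changed after its output was seen. In all 8 combinations every pair of wide LINE and LTR elements at 10 to 11 kb held (7 to 77 pairs), and at 11 to 13 kb 75.5% to 83% did. Whether both reads of a pair were counted was not given in the sources used here. The members and lists were chosen with earlier results of these data known.

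Counts were scaled by TMM (edgeR 4.0.16, R 4.3.3) over the LINE flanking intervals of each pair. The factors were 1.003 and 0.997 and the effective sizes 32553914 for WT and 31329376 for Lsh-/- embryos. A count under 3 was raised to 3, and calls were made at 4-fold wherever both libraries summed to 10 or more. With 1 library a group no dispersion can be estimated, so no p-value is given, and exact (Clopper-Pearson) 95% intervals cover counting error only. A fold against a count of 0 is given as the lower end of its interval. The call rule was tested on simulated data with counting error only, which cannot show how variation between embryos affects the calls. Loci were placed on GENCODE vM1 with bedtools 2.31.1. All LINE loci and 4905 of 4947 LTR loci lay on sequences of the mm9 genome used and within their ends. Named loci are, per repeat group, the locus called higher with the most mutant counts and the one called lower with the most WT counts (2 of each for IAP groups and RLTR10), passing over a locus that overlaps a listed one with more counts, the 3 flanking intervals called each way with the most counts, Hells, and the 10 loci called lower with the most WT counts. Other names were chosen after their values were seen, namely those in the chromosome 9, 13 and 19 groups. Alternatives were 2 other scalings, 2 count minimums, 2 other fold rules, removal of shared reads, autosomes only and, added after seeing the data, loci off exons.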

Additional observations from a re-analysis of the deposited data

Results flagged for a closer look

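The 7 results below went in opposite directions in the embryo and the fibroblast pair, with 1 library a side, and the difference was not tested. RLTR10D on chromosome 12 from 22154970 had a log2 fold of -2.39 in embryos (38 counts in WT and 7 in Lsh-/-) and 2.69 in fibroblasts (3 and 20). RLTR10C on chromosome 3 from 96312130 had -4.34 in embryos (63 and 2) and 2.15 in fibroblasts (23 and 106). RLTR1B on chromosome 2 from 94641221 had -2.68 in embryos (20 and 3) and 4.42 in fibroblasts (7 and 155), and RLTR1B on chromosome X from 73517133 had -2.17 in embryos (14 and 0) and 2.76 in fibroblasts (0 and 21). RLTR10A on chromosome 5 from 138772767 had 2.47 in embryos (3 and 16) and -2.12 in fibroblasts (21 and 5). These 5 are all the LTR loci called in opposite directions. They are 1 of 519 loci called higher in embryos and tested in both, against 1.54% of all 1236 called lower in fibroblasts. The others are 4 of 22 called lower in embryos, against 57.3% of all 1236 called higher in fibroblasts.

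The Lx8 locus on an exon of Xaf1 had a log2 fold of -4.94 in embryos (96 and 1) and 0 and 151 counts in fibroblasts. Of 399 LINE loci called higher in embryos and tested in both tissues, 10 were called lower in fibroblasts, against 2.92% of all 11016. Of 441 called lower in embryos 20 were called higher in fibroblasts, against 4.51% of all. Both lay near the share over all loci. Of these loci, the Lx8 locus alone was among the named loci. The interval on Tpm3-rs7, at lower coordinates from an L1Md_F2 locus on chromosome 14, had 8.56 in embryos (15 and 5434) against 2693 and 74 counts in fibroblasts.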

How the results depend on the processing

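No paired analysis was possible because the groups hold 1 library each. Of 90 alternative counts, 63 lay within 1.5 times the main count. All 10 results kept to that under size factors of DESeq2 1.42.0, total counts, no count minimum, shared reads removed and autosomes only. Without a count minimum no call could be added, since a call against 0 needs 12 counts. The shares called higher fell, to 12.8% for LTR, 23.4% for IAP and 5.46% for non-IAP LTR loci. With DESeq2's factors the LINE split turned, from 1322 higher and 1131 lower to 1311 and 1450, and the LINE flanks from 6014 and 4999 to 5962 and 6182, while the LTR loci gave 633 and 64. Those factors were equal for both libraries, since the middle of the 210749 ratios fell among the 14308 intervals with equal counts. With at least 50 counts, LTR loci were called higher at 126 and lower at 7, IAP loci higher at 87 of 118 (73.7%), non-IAP LTR loci higher at 39, LINE loci at 79 and 46, LTR flanks at 17 and 13 and LINE flanks at 564 and 604. Fewer loci were tested, and the shares moved too, to 25.8% higher and 1.43% lower for LTR, 10.5% for non-IAP LTR, 1.64% and 0.952% for LINE loci, 1.62% and 1.24% for LTR flanks and 0.716% and 0.767% for LINE flanks. With a fold limit of 2 the counts were 213 for LTR loci lower, 291 for non-IAP LTR loci higher, 5348 and 5194 for LINE loci, 279 and 292 for LTR flanks and 23020 and 23078 for LINE flanks. With a fractional prior count in place of the floor and a log2 limit of 5 they were 25 for LTR loci lower, 105 for non-IAP LTR loci higher, 771 and 723 for LINE loci, 69 and 37 for LTR flanks and 3177 and 2692 for LINE flanks. With loci on exons left out, chosen after seeing the data, LTR flanks lower were 42. The split of LTR flanks turned to more lower than higher at the fold limit of 2, and that of LINE flanks at the fold limit of 2 and at 50 counts. Low depth per locus limits the calls: the LTR loci called higher had a median of 22 mutant counts, and with 1 library a group the variation between embryos is unknown.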

Other observations

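Genes outside the fixed lists were read where at least 5 tested intervals lay on their exons, and the genes below were chosen after their values were seen. Of 5860 such protein-coding genes 16 were higher and 27 lower by 4-fold. Among the lowered ones, Fcrls, a microglial and macrophage receptor gene, had 1570 and 326 counts, with 8 of 12 intervals called lower. Ccl12, a monocyte chemokine gene, had 809 and 180, Clec4n, which encodes the lectin Dectin-2, 401 and 47, Vav1, a signalling gene of blood cells, 275 and 62, and Ms4a7 242 and 69. Apob, of the lipoproteins, had 80 and 10, and Hhex, a homeobox gene, 162 and 36. Trf (transferrin) had 11 of 16 intervals called lower, but 1530 and 954 counts in sum and 473 and 465 as the largest counts of an interval. No list of a cell type was tested among these genes.

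Among the raised genes, Col10a1, the collagen of hypertrophic cartilage, had 1793 and 8124 counts, 4 of 5 intervals called higher, while the cartilage genes Col2a1 and Sox9 were within 4-fold. Some had no WT count. Mrgprx2 had 0 and 2093 counts, with all 8 intervals called higher, Gbp1, a guanylate-binding protein gene, 0 and 409 over 11 intervals, and Gm14444 0 and 386 over 6. With some WT counts, Cyp2c55, of the cytochrome P450 family, had 25 and 670 over 16 intervals, and Nxf3 11 and 213.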
